A study of Zea mays with 6 samples.

Results

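Genes that were already expressed in maize seedlings and whose transcript level at least doubled within 30 min of auxin were taken from a table of 39283 genes. A gene was a member if its level was at least 2 FPKM (sequenced fragments assigned to a gene, per unit of transcript length and of sequencing depth) in the control and at least 2 times that value after auxin. Of 104 genes that met both thresholds, 6 in a single stretch of chromosome 2 and 6 single genes were left out and are not analysed here, which left 92 members. The members were chosen by these control and auxin values themselves, so the levels below describe them and no test of the treatment was made. The background for every count is the set of 20205 genes at 2 FPKM or more in the control, hereafter expressed genes. All 171 rows that the rule leaves out, which are the whole stretch on chromosome 2, the microRNA rows and the 6 single genes, were removed from this set, 32 of them at that control level. The 92 members make up 0.455% of the expressed genes. At the same fold in the other direction, 263 expressed genes, or 1.30%, were at least halved. With both columns scaled to equal totals the numbers were 120 doubled and 220 halved, and with the minimum set on the mean of both treatments 134 and 217.

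The seedlings were of the inbred line B73 and 7 days old. Their aerial parts were cut and kept for 30 min in a solution with indole-3-acetic acid (IAA, the main natural auxin) and 1% DMSO, or with 1% DMSO alone, so both groups carry the cutting, the incubation and the solvent. Each treatment had 3 samples of 3 plants each. The dose is 100 mM IAA by the sample labels and 100 μM by the methods of the study. The deposited table holds 1 value per gene and treatment over the 3 samples, and the values of the single samples are not among them, so no difference is set against the spread between samples here. The test results of the authors in the same table were not used. In whole shoots, a larger share of cells that express a gene and more transcript per cell cannot be told apart.

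Auxin is perceived by TIR1/AFB F-box proteins, which on binding it mark Aux/IAA repressors for degradation. Auxin response factors (ARFs), transcription factors that the Aux/IAA proteins hold in check, can then activate their targets. The earliest transcripts to accumulate include those of Aux/IAA, SAUR and GH3 genes, which are used throughout plants as markers of the response. A gene that is already transcribed can be raised in this way, as can a gene that is close to silent. Only the first kind is described here.

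Across the members, the control level ran from 2.09 to 196 FPKM with a median of 5.004 FPKM, against a median of 12.6 FPKM for all expressed genes. After IAA it ran from 4.41 to 421 FPKM with a median of 15.2 FPKM. The median ratio of IAA over control was 2.36, and the middle 50% of the members lay between 2.15 and 2.98. Most members were therefore close to the threshold: 55 of the 92 had a ratio under 2.5, and 22 had a ratio of 3 or more. Only 7 reached 4, and only 1 reached 10. The median log2 ratio of all expressed genes was -0.05.

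**Figure D1:**
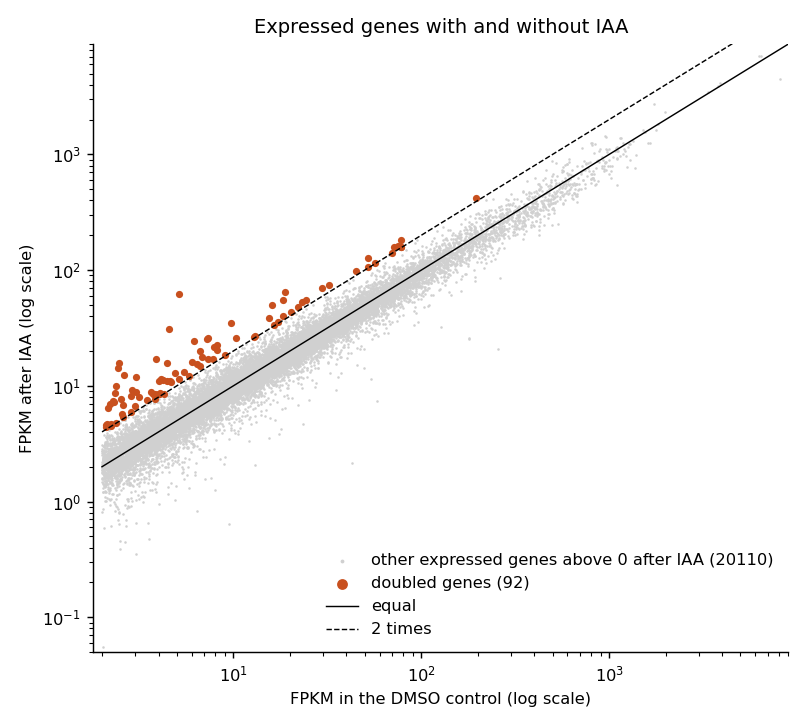
FPKM after IAA (vertical axis, log scale) against FPKM in the DMSO control (horizontal axis, log scale) for the expressed genes, 1 point per gene, with the 92 doubled genes in orange; the solid line marks equal levels and the dashed line a ratio of 2. The members lie on or above the dashed line over the whole range of control levels from 2.09 to 196 FPKM, and 3 expressed genes listed at 0 after IAA are not drawn.

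The largest ratio belonged to GRMZM2G030465, on chromosome 5 from 214460676 to 214461910 in B73v3, whose level was 5.16 FPKM in the control and 62.0 FPKM after IAA, a ratio of 12.02. By level it stood at place 15860 of the 39112 genes kept in the control and at place 2401 after IAA. The name table used here, that of RefSeq, lists this gene by identifier without giving it a name. No other member moved by as large a factor, and the next one reached 6.84.

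That second gene, GRMZM2G413482 on chromosome 1, was listed at 4.56 FPKM in the control and at 31.2 FPKM after IAA. Its locus spans only 225 bp, and it has no entry in the name table. AUX1 (GRMZM2G000158), on chromosome 6 from 80078086 to 80079839, went from 2.47 FPKM to 15.8 FPKM, a ratio of 6.39. GRMZM2G163826, on chromosome 2 from 215683063 to 215687658, was at 2.44 FPKM and 14.2 FPKM, a ratio of 5.81. These 3 genes and GRMZM2G030465 are the 4 members with a ratio over 5, and all of them had a control level below 6 FPKM, so they started low among expressed genes.

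The next members by ratio also started below 10 FPKM in all but 1 case. GRMZM2G151510 was listed at 2.63 FPKM in the control and at 12.4 FPKM after IAA. It is the only member that the name table lists as a long non-coding RNA. GRMZM2G053338 was at 3.85 FPKM and 17.0 FPKM, and GRMZM2G074742 at 2.38 FPKM and 9.99 FPKM. Ratios between 3.4 and 4 were found for GRMZM2G301860, GRMZM2G068701, GRMZM2G100360, GRMZM2G367650, GRMZM5G833998, AUX32, GRMZM2G148074 and AUX17. Among these, GRMZM2G068701 was at 6.16 FPKM in the control and 24.3 FPKM after IAA, GRMZM2G367650 at 7.31 FPKM and 26.1 FPKM, and GRMZM2G148074 at 7.27 FPKM and 25.3 FPKM. AUX17 (GRMZM2G079957), on chromosome 1 from 170553927 to 170555938, had the highest control level of the 22 members with a ratio of at least 3, at 18.9 FPKM, and reached 65.1 FPKM.

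The most abundant members had small ratios. FtsH2B (GRMZM2G087598), on chromosome 6 from 93157101 to 93162746, had the highest level of all members, with 196 FPKM in the control and 421 FPKM after IAA, a ratio of 2.15. FtsH proteins are membrane-bound, ATP-dependent proteases, and in Arabidopsis chloroplasts they take part in the repair of photosystem II. This gene alone carried 11.5% of the FPKM that all members gained together. Of the members with at least 50 FPKM in the control, GRMZM2G057075 on chromosome 8 had the largest ratio, 2.46, with 52.2 FPKM and 128 FPKM.

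The same 10 genes were the most abundant members in both treatments. GRMZM5G822237, on chromosome 2, was listed at 77.7 FPKM in the control and 180 FPKM after IAA. GRMZM2G341405 was at 75.01 FPKM and 161 FPKM, and GRMZM2G001696 at 71.5 FPKM and 158 FPKM. GRMZM2G374302 was at 77.9 FPKM and 158 FPKM, and GRMZM2G115357 at 69.7 FPKM and 140 FPKM. The remaining ones are AUX3, FIP1 and GRMZM2G046952, described below. These 10 genes held 46.9% of the summed gain of the members.

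Between 20 and 50 FPKM in the control there were 7 members. NAC5 (GRMZM2G162739), on chromosome 2 from 159575160 to 159577058, was at 24.5 FPKM and 55.3 FPKM, a ratio of 2.26. NAC genes encode plant-specific transcription factors, and the name table gives the name nac5 to a second identifier, GRMZM2G041746, which was near silent at 0.303 FPKM and 0.275 FPKM. GRMZM2G035749 was listed at 45.0 FPKM and 98.7 FPKM, GRMZM2G441144 at 29.5 FPKM and 70.4 FPKM, and GRMZM2G044359 at 22.1 FPKM and 47.7 FPKM. No member with 20 FPKM or more in the control, 17 in all, reached a ratio of 3. Of the 63 halved genes with such a control level, 15 were lower by a factor of 3 or more, and the lowest ratio was 0. Among all halved genes 11.4% share their locus with another gene, against 3.26% of the members. Whether this bears on the contrast was not tested.

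**Figure D2:**
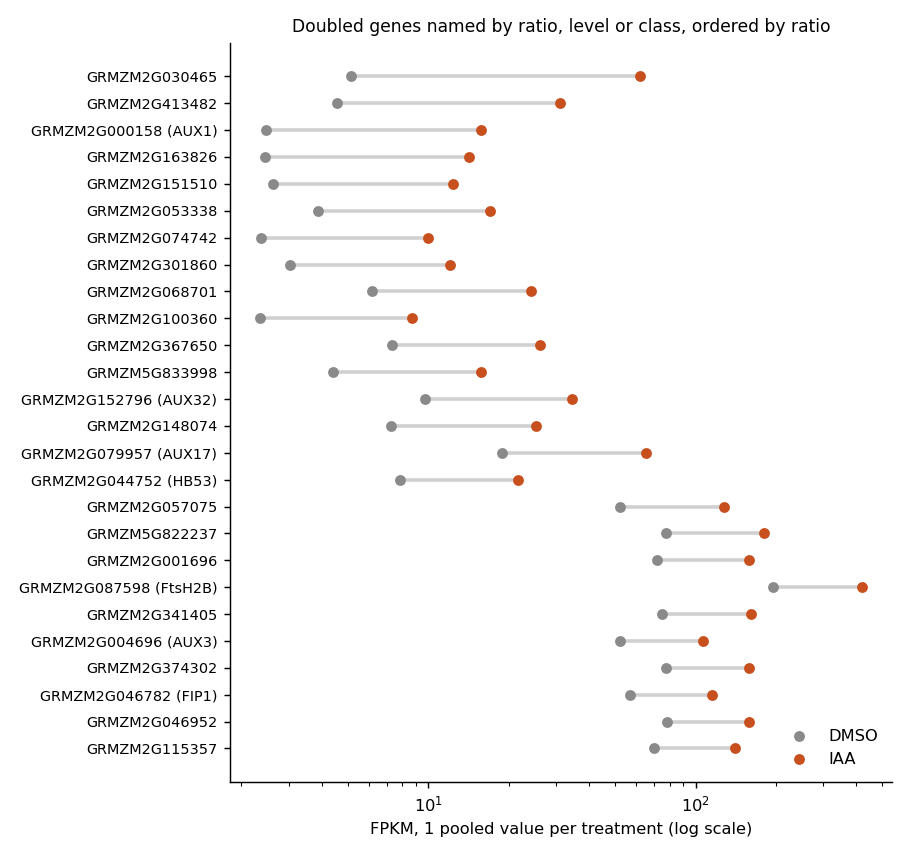
FPKM in the DMSO control (grey) and after IAA (orange) on a log axis for 26 members, those with the 15 largest ratios, those with the 10 highest levels and HB53, ordered from the largest ratio at the top; each point is 1 value pooled over 3 samples, with no error available. The longest lines belong to genes that start between 2.35 and 18.9 FPKM, and the 10 most abundant genes, from 52.2 FPKM upward, all have short lines.

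Summed over the 92 members, the level was 1441 FPKM in the control and 3406 FPKM after IAA. That is 0.175% of the summed FPKM of the whole table in the control and 0.433% after IAA, while the sum over the whole table was lower after IAA, at 95.6% of the control. The members were thus a small part of the transcript pool under both treatments.

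Annotation of the members was sparse. The name table holds 51 of the 92 identifiers, or 55.4%, against 72.9% of all expressed genes and 41.8% of the halved genes. Only 17 members have any further name in it, some of which are marker names, so the group cannot be read by function. In the table of levels itself a single member, PPDK2, carries a symbol.

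Genes named AUX with a number were the one named group with several members. Outside the genes left out, the table holds 16 identifiers with such a name, 12 of them expressed, and 5 of these 12 (41.7%, against 0.455% of all expressed genes) were members. The name table does not say which protein family these genes belong to. The group was picked with its values known, so the share describes these genes only. Its median log2 ratio over the 12 expressed genes was 0.43, against -0.05 for all expressed genes.

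AUX1 had the largest ratio of the 5, as given above. AUX32 (GRMZM2G152796), on chromosome 5 from 4201092 to 4202519, was listed at 9.74 FPKM in the control and 34.6 FPKM after IAA, a ratio of 3.56. AUX17 followed closely with 3.44. AUX15 (GRMZM2G079200), on chromosome 6 from 103303641 to 103305338, was at 7.32 FPKM and 17.0 FPKM, a ratio of 2.33. AUX3 (GRMZM2G004696), on chromosome 3 from 10076687 to 10080041, was the most abundant of them, at 52.2 FPKM and 107 FPKM, with a ratio of 2.04. The 5 genes thus spanned control levels from 2.47 to 52.2 FPKM, and the order by ratio was not the order by level.

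The other 7 expressed AUX genes fell below a ratio of 2, where the rule itself divides them from the members. None of the 12 had a ratio between 1.397 and 2.04, but there were such gaps among the members too. These lay between 2.33 and 3.44 and between 3.56 and 6.39. AUX18 was nearest to the threshold, at 16.2 FPKM in the control and 22.7 FPKM after IAA, a ratio of 1.397. AUX6, AUX10 and AUX35 had ratios of 1.29, 1.27 and 1.27. AUX14, the most abundant of the group in the control at 65.1 FPKM, was at 70.1 FPKM after IAA. AUX34 and AUX27 were slightly lower after IAA, with ratios of 0.946 and 0.936. Below the control minimum there were 4 more identifiers. AUX9 (GRMZM2G048131) was listed at 0.330 FPKM and 2.26 FPKM, so it had a ratio like that of AUX1 but did not count as already expressed. A second identifier with the name AUX9, GRMZM2G149449, was at 0 FPKM in both treatments. AUX36 and AUX5 had ratios of 1.35 and 1.10. GRMZM2G129413, which is not the AUX1 above, is listed under the names aic1 and aux1 in lower case and was at 9.02 FPKM and 12.8 FPKM.

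**Figure D3:**
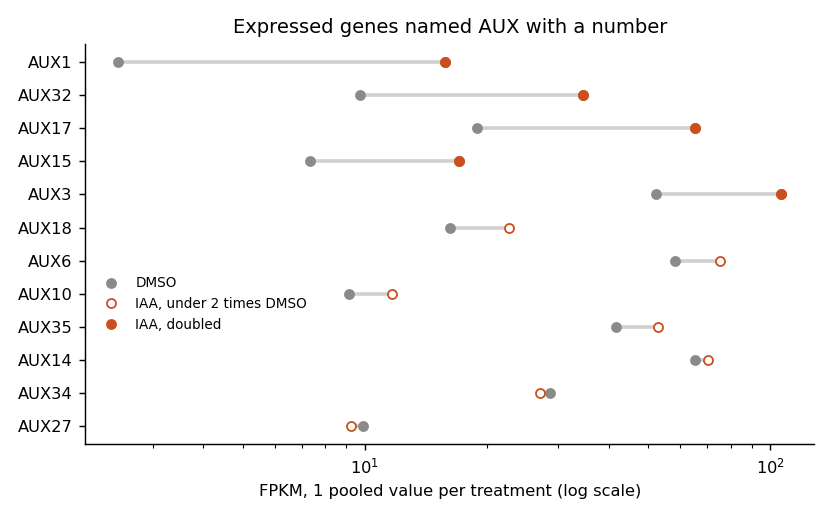
FPKM in the DMSO control (grey) and after IAA (orange, filled for members and open for the others) on a log axis for the 12 expressed genes named AUX with a number, ordered by ratio; each point is 1 value pooled over 3 samples. The 5 members had ratios from 2.04 to 6.39 and the other 7 from 0.936 to 1.397, and members and other genes overlap in control level.

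Among the families listed by symbol, 1 of 265 expressed genes was a member (0.377%), close to the 0.455% of all expressed genes. HB53 (GRMZM2G044752), a homeobox gene on chromosome 2 from 21024779 to 21026404, was that gene (the lists do not hold NAC5 or the AUX genes), at 7.85 FPKM in the control and 21.7 FPKM after IAA, a ratio of 2.76. Homeobox genes encode transcription factors that bind DNA through a homeodomain. It was 1 of 24 expressed homeodomain genes, whose median log2 ratio was 0.08. Its own, 1.47, was the highest of them, which follows from its being the only member among them. None of 16 expressed ARF genes was a member, and their log2 ratios lay between -0.36 and 0.87 with a median of -0.04. None of 36 MYB, 29 bHLH, 25 AP2/ERF, 23 bZIP or 14 WRKY genes was a member either. The highest log2 ratios in these 5 families were 0.67, 0.97, 0.52, 0.65 and 0.75. At the share of all expressed genes, lists of this size would seldom hold a member, so these counts say nothing particular about the families. They also cover only the genes that the name table names. The lists for Aux/IAA, SAUR, GH3, auxin receptor and NAC genes, among others, matched no gene, so those families are not covered by these counts.

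Further members can be placed by a name only. FIP1 (GRMZM2G046782), on chromosome 10, is described below with its neighbour. GRMZM2G109865 on chromosome 2 was at 4.88 FPKM in the control and 13.0 FPKM after IAA, a ratio of 2.67. The study lists it as uncharacterized, with GABA transporter in brackets, among genes near strong ARF binding sites. AGA3a (GRMZM2G050273), on chromosome 1, was at 23.2 FPKM and 52.6 FPKM.

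PPDK2 (GRMZM2G097457), on chromosome 8 from 106530187 to 106541083, was the member closest to the threshold, at 4.26 FPKM in the control and 8.52 FPKM after IAA. Pyruvate, phosphate dikinase makes phosphoenolpyruvate from pyruvate, and in C4 leaves its chloroplast form regenerates the acceptor of carbon dioxide. The name table also lists PPDK2 as CYPPDKZM2, and whether it encodes that chloroplast form was not examined. The related gene Ppdk1 (GRMZM2G306345), on chromosome 6, was at 1741 FPKM and 2726 FPKM, a ratio of 1.57. Reads of similar copies could have been divided between these genes, and Ppdk1 was by far the more abundant one.

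The threshold itself fell in a dense range of ratios. Besides PPDK2, the members just above a ratio of 2 were GRMZM2G115357 at 2.01 and GRMZM2G382534 at 2.02. Just below it were GRMZM2G366301 at 1.995 (8.96 FPKM and 17.9 FPKM), GRMZM2G052509 at 1.99 (67.2 FPKM and 134 FPKM) and AC205376.4_FG003 at 1.99 (3.31 FPKM and 6.58 FPKM). Between ratios of 2 and 2.1 there were 18 members, and between 1.9 and 2 another 34 expressed genes. At the lower limit of the control level, the first members were GRMZM2G078806 at 2.09 FPKM, GRMZM2G117246 at 2.102 FPKM and GRMZM2G586702 at 2.14 FPKM. The first genes with a sufficient ratio that missed it were GRMZM2G036340 at 1.92 FPKM and 6.05 FPKM, GRMZM2G105834 at 1.91 FPKM and 3.96 FPKM, and GRMZM2G073634 at 1.84 FPKM and 4.85 FPKM.

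The share of expressed genes that were members was highest among the weakly expressed ones. At 2 to 5 FPKM in the control, 46 of 4156 genes (1.11%) were members, at 5 to 20 FPKM 29 of 8900 (0.326%), at 20 to 50 FPKM 7 of 4024 (0.174%) and from 50 FPKM upward 10 of 3125 (0.320%). The halved genes showed the same order at the low end, with 2.60%, 1.03%, 0.795% and 0.992% in these ranges. The median ratio of the members in the same ranges was 2.52, 2.48, 2.26 and 2.09. Genes at 2 to 5 FPKM made up 46 of the 92 members and 14 of the 22 with a ratio of at least 3.

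A feature that the rule did not use was the length of the locus. The members' loci had a median span of 1648.5 bp, introns included, against 3763 bp for all expressed genes, and those of the halved genes were shorter still, with a median of 953 bp. Of 458 expressed genes with a locus under 600 bp, 2.62% were members and 15.7% were halved. At spans of 4000 bp and more, 0.138% of 9397 genes were members and 0.287% were halved. Only from 2000 bp to under 4000 bp were more genes doubled (25) than halved (19). The shorter span of the members held within each range of control level, with medians of 2003.5, 1235 and 1899 bp at 2 to 5, 5 to 20 and 20 or more FPKM, against 2900, 4155 and 3743 bp for the expressed genes of the same range. Both directions were thus more frequent at short loci, and the part of this in the membership of any one gene was not tested.

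**Figure D4:**
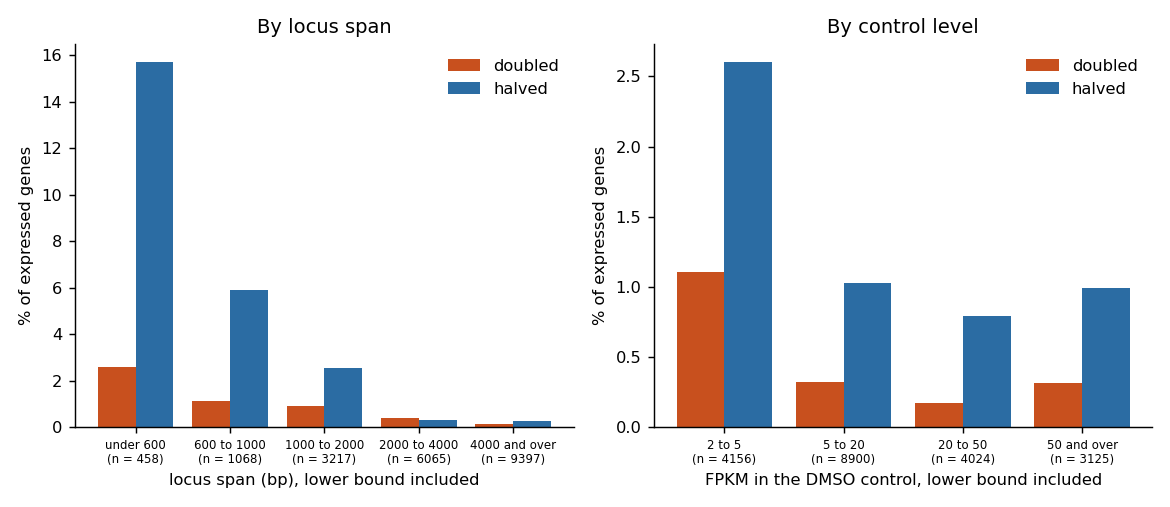
Percentage of expressed genes that were doubled (orange) or halved (blue) after IAA, by locus span in bp (left) and by FPKM in the DMSO control (right); the number of expressed genes in each range stands under its bars. Both shares are highest for loci under 600 bp (2.62% and 15.7%) and for control levels of 2 to 5 FPKM (1.11% and 2.60%).

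The 12 members with a locus under 600 bp had spans from 150 to 573 bp and ratios from 2.05 to 6.84. Only 1 of them, AGA3a, is in the name table. GRMZM5G833998 (222 bp) was at 4.42 FPKM and 15.7 FPKM, and GRMZM2G056547 (539 bp) at 16.1 FPKM and 49.997 FPKM. GRMZM2G383735 (327 bp) had the highest control level of the short ones, at 32.5 FPKM, and was at 74.2 FPKM after IAA. At a given FPKM a shorter transcript rests on fewer fragments. How many fragments stand behind these values is not known here.

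Members were found on all 10 chromosomes. The share of expressed genes that were members ran from 0.249% on chromosome 4 (5 of 2006) to 0.673% on chromosome 2 (16 of 2379), and chromosome 1 held the largest number, 18. The nearest expressed genes on either side of the members were also listed, and those that are members themselves were left out. The remaining 175 had a median log2 ratio of -0.03, with 80 above 0 and 95 below. For all expressed genes, members included, the median was -0.05. Because neighbours that are members were removed, these values do not describe all neighbours. Such neighbours are among the pairs described below.

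Some members were close neighbours. There were 5 pairs of members less than 100 kb apart, which together hold 10.9% of the members. Among the 263 halved genes 5.32% lay in such pairs. This share depends on the number of genes in a set and was not taken over all expressed genes. Whether members lie close together more often than other genes was therefore not tested. In 3 of the 5 pairs of members, no other gene of the table lies in between.

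The pair on chromosome 10 consists of FIP1, from 132115902 to 132117377, and GRMZM2G046952, from 132120550 to 132121962, separated by 3172 bp. FIP1 was listed at 56.9 FPKM in the control and 116 FPKM after IAA, a ratio of 2.03. GRMZM2G046952 was at 77.9 FPKM and 158 FPKM, also a ratio of 2.03. The ratios of these abundant neighbours were the same to the second decimal, and the next gene on the left, GRMZM2G046755, was near silent at 0.349 FPKM and 0.391 FPKM.

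On chromosome 7, GRMZM5G835903 (147456437 to 147457200) was at 10.3 FPKM and 26.0 FPKM, and its neighbour GRMZM2G105419 (147460965 to 147461868) at 6.67 FPKM and 14.8 FPKM. The gene before them, GRMZM2G042429, narrowly missed the rule, with 17.7 FPKM, 34.5 FPKM and a ratio of 1.95. These 3 genes in a row were all higher after IAA, and GRMZM2G012636 before them had a ratio of 1.30. On chromosome 2, GRMZM2G163826, named above with a ratio of 5.81, is followed after 20451 bp by GRMZM2G350773, at 2.84 FPKM and 8.10 FPKM, a ratio of 2.85. The expressed genes on both sides of this pair had ratios of 0.981 and 0.764.

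In the last 2 pairs another gene lies between the members. On chromosome 1, GRMZM2G123986 was at 4.43 FPKM and 11.1 FPKM and GRMZM2G124042 at 2.31 FPKM and 7.20 FPKM, while GRMZM2G556515 between them was at 1.57 FPKM and 1.01 FPKM. The name table lists GRMZM2G123986 both as protein-coding and as a transcribed pseudogene. On chromosome 6, GRMZM2G077922 was at 8.20 FPKM and 20.3 FPKM and lies 18876 bp before FtsH2B, and GRMZM2G385182 between them was at 2.73 FPKM and 2.496 FPKM. In neither place did the gene in between share the higher level of its neighbours. Whether the members of a pair are similar copies, between which reads could be divided, is not known here.

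**Figure D5:**
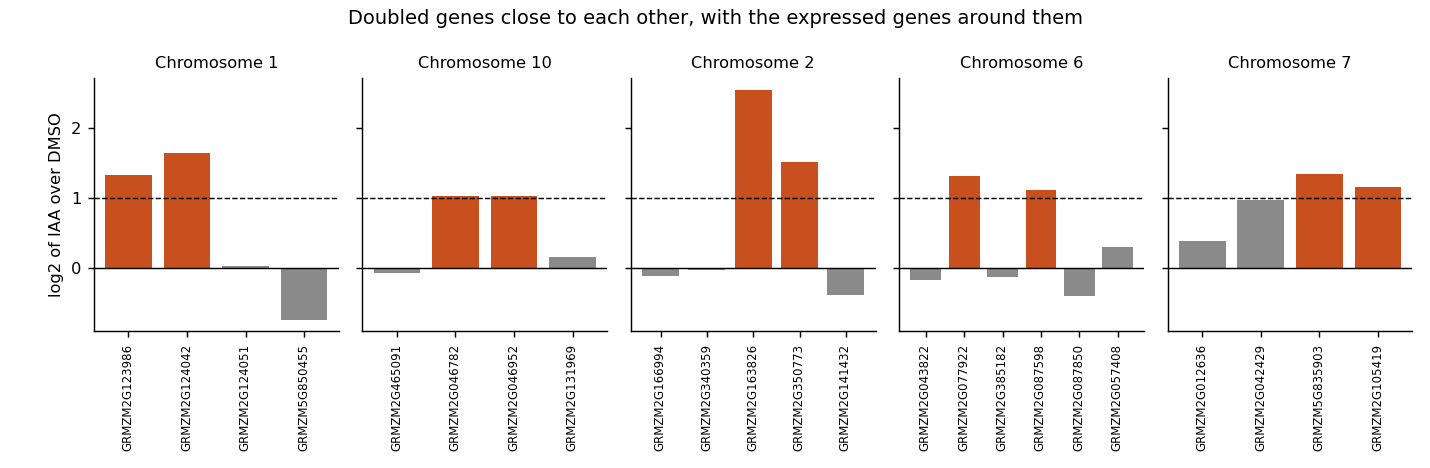
log2 of IAA over DMSO FPKM for the 5 pairs of members less than 100 kb apart (orange) and the expressed genes among the 2 nearest rows on either side and between them (grey), in their order along each chromosome; the dashed line marks a ratio of 2. An expressed gene at or above the dashed line is a member by the rule, so all grey bars lie below it. GRMZM2G042429 on chromosome 7 comes closest to that line with 0.96.

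For 3 members the table gives a second gene at the same locus, and for these the values are uncertain, because reads of overlapping genes can be assigned to either. GRMZM2G084812, which the name table lists as rfz1, was at 20.3 FPKM and 43.4 FPKM. The gene at the same locus on chromosome 6, GRMZM6G949474, which that table lists under the same entry, was at 59.6 FPKM and 34.3 FPKM. Their sum was 79.9 FPKM in the control and 77.7 FPKM after IAA, so the locus as a whole was at 0.973 of the control level although 1 of its genes is a member.

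The other shared loci differ from this. GRMZM2G089995, on chromosome 4, was at 12.9 FPKM and 26.6 FPKM and its partner GRMZM2G090010 at 25.6 FPKM and 31.5 FPKM, so their sum had a ratio of 1.51. GRMZM2G027673, also on chromosome 4, was at 4.68 FPKM and 10.7 FPKM and its partner GRMZM2G028766 at 18.4 FPKM and 19.5 FPKM, with a ratio of 1.31 for the sum. For none of the 3 did the whole locus reach a ratio of 2.

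The labelled tissue was checked against marker genes. The 10 leaf photosynthesis genes had a median of 762 FPKM in the control and 912 FPKM after IAA. Their control levels ran from 2.26 to 1741 FPKM, so the lowest lay within the range of the meristem genes. The 4 shoot meristem genes had medians of 3.56 and 3.07 FPKM, with control levels from 1.29 to 4.83 FPKM. All 25 endosperm storage genes were below 1 FPKM in both treatments. None of these marker genes was a member. Tassel and pollen markers, sh2 and bt2 had been planned but were not examined.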

How the data were processed

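RNA from 6 samples, 3 per treatment, was sequenced from stranded libraries. Read trimming by the authors used trimmomatic, alignment to B73v3 used TopHat2 2.1.1 and quantification Cuffdiff 2.2.1 (versions from the submitters' processing notes). The deposited FPKM values are 1 per gene and treatment over the replicates. The table also holds Cuffdiff's log2 fold changes, test statistics, p-values and q-values, which are the authors' own comparison and were not used. Cuffdiff's options, library totals and any use of strand in the counting are not given in the sources used here, so depth is unknown.

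Ratios were IAA over DMSO FPKM without a pseudocount, for genes at 2 FPKM or more in DMSO, and halved means an IAA value of at most 50% of the DMSO value. Members and lists were chosen with earlier results of these data known. The FPKM columns hold no values of single samples, and the members were chosen on their ratio, so no test was run. 1 was added to each locus start, so that coordinates count from 1. Names came from the RefSeq table of the Zm-B73-REFERENCE-NAM-5.0 assembly, of which no coordinates were used. Named genes were, by rule, the 15 members with the largest ratio, the 10 highest in each treatment, up to 4 per symbol class, and the 3 on either side of each threshold. The AUX genes, NAC5, AGA3a, GRMZM2G109865, Ppdk1, the members of the 20 to 50 FPKM range, short loci, neighbours and shared loci were added after their values were seen. No promoter or protein sequences were used. The code of the selection was run on simulated data in which only the planted genes could reach a threshold. That run checks how the rule is coded and says nothing about the members. All steps were run in Python 3.11.15 with pandas 2.3.3, numpy 2.4.6 and, for the plots, matplotlib 3.10.9.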

Additional observations from a re-analysis of the deposited data

How the results depend on the processing

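No paired analysis was possible because every gene has only 1 value for all samples of a treatment, and leaving out replicates was not run for the same reason. The promoter comparison was not run. The number of doubled genes was 46 with a control minimum of 5 FPKM, 576 with a ratio of at least 1.5 and 22 with a ratio of at least 3, each by construction. It was 138 with a minimum of 1 FPKM, 67 with a pseudocount of 1 FPKM, 88 with 0.1 FPKM, 110 with the median of the expressed genes set to 0 (231 halved), 120 with equal totals (220 halved) and 89 without shared loci. With the minimum set on the mean of both treatments, a setting chosen after seeing the data, 134 genes were doubled and 217 halved, against 92 and 263. The excess of halved genes was thus smaller but remained in this setting. The settings were not combined, and halved genes among the rows left out were not counted. With the median set to 0, 2 members were in a symbol class. The median locus span of the doubled genes lay between 1420.5 and 1902.5 bp in these settings. A pseudocount of 1 FPKM lowered the log2 ratio of the 31 members named by rule by up to 0.40, which took 5 of them below a ratio of 2. Depth being unknown, its limit on low and short genes was not measured.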
